A study of Mus musculus with 7 samples.

Results

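Matrix proteases and their TIMP inhibitors were followed in mouse neural stem cells that were wild type or carried 1 of 2 Tet mutant genotypes. The genes were taken by symbol from the table of normalized counts: every row named Mmp, Adamts or Adam with a number, and Timp1 to Timp4. The rule found 51 of the 18145 genes in the table, comprising 16 matrix metalloproteinases (MMPs), 18 ADAMTS proteases, 13 ADAMs and 4 TIMPs. RefSeq lists 80 protein-coding mouse genes that match the rule, and the other 29 were not analysed here. All 51 passed the filter on low values. By limma, 35 were called in at least 1 comparison between genotypes. Of all genes, 38.8% were called in TMut versus WT, 8.77% in TFoCa versus WT and 35.8% in TMut versus TFoCa. The share of all genes called in at least 1 comparison was not counted, so the 35 has no like share beside it.

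The cells were neural stem cells at passage 1, profiled by RNA sequencing in 7 libraries, each from a line of its own according to the design text. There were 2 libraries labelled Tet-TMut (TMut), 2 labelled Tet-TFoCa (TFoCa) and 3 from wild-type lines (WT). The labels do not say which Tet gene, residue or oxidation step either genotype alters. The title of the study names DNA hydroxymethylation on one side and DNA formylation and carboxylation on the other, which are successive products of TET enzymes acting on methylated cytosine.

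MMPs are zinc endopeptidases, secreted or held at the membrane, that cut collagens, proteoglycans and other matrix proteins. ADAMTS proteases are secreted and bind the matrix, where they cut lectican proteoglycans and trim procollagens, while ADAMs sit in the membrane and release the outer parts of other membrane proteins, Notch receptors and growth factor precursors among them. TIMPs are small secreted proteins that occupy the active site of these enzymes. In the neural stem cell niche the families are known for remodelling matrix, for Notch processing and for cell migration.

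Between 33340167 and 62545457 reads were assigned to genes in a library. The 10 neural stem cell markers fixed for the check (Nes, Sox2, Pax6 and others) were listed above 0 in every library, but 9 of them summed to 40388 and 28191 normalized counts in TMut lines, 63078 and 71587 in TFoCa lines and 111749, 111539 and 111220 in WT lines. The other one, Vim, lay higher in the mutant lines than in WT lines, with 113661 and 101256 in TMut lines, 84912 and 88637 in TFoCa lines and 65556, 66949 and 70733 in WT lines. Of the 10 markers 1 rose and 8 fell in TMut against WT (median log2 fold change -2.35), and 2 fell in TFoCa (median -0.89). Over all genes tested, 18.4% rose and 20.4% fell in TMut, and 5.25% rose and 3.52% fell in TFoCa. Each count of markers in this paragraph is to be read beside these shares. Markers of mesenchymal cells or fibroblasts (Col1a1, Twist1 and others, 10 of 10 listed) summed to 199436 to 283274 in TMut lines, 359655 to 407990 in TFoCa lines and 141246 to 153099 in WT lines. Of these 10 genes, 4 rose and 3 fell in TMut (median 0.28) and 8 rose in TFoCa (median 1.28). Fibroblast-type transcripts thus moved mostly upward in TFoCa and in both directions in TMut. All 5 astrocyte markers tested fell in TMut (median -2.69) and 1 fell in TFoCa, and of 5 oligodendrocyte lineage markers 3 fell in TMut and 1 rose in TFoCa. Of 8 endothelial markers 3 rose and 1 fell in TMut and 1 fell in TFoCa. Of 6 pluripotency markers 1 rose in TMut and all 6 fell in TFoCa, and their summed level was 11878 to 46191 in TMut lines, 888 to 1083 in TFoCa lines and 11643 to 23632 in WT lines. The 8 microglia and macrophage markers were not analysed here. The part of any of these marker shifts in the changes of protease and TIMP transcripts was not tested, and in bulk RNA fewer cells of a type and less RNA per cell cannot be told apart.

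Values below are normalized counts, which are read counts of a gene divided by the size factor of the library, and they are listed in replicate order. Changes are log2 fold changes with their standard error on the log2(normalized count + 1) scale, from limma over all 7 libraries (n = 2 TMut, 2 TFoCa and 3 WT). A gene was called where its Benjamini-Hochberg adjusted p over 18134 genes was under 0.05. Lost calls given below gene by gene, and their ranges of adjusted p, leave out a fit with the replicate number as a block. The calls lost in that fit are given in the closing section. Both mutant genotypes are set against the same 3 WT libraries, so their values are given side by side.

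In TMut lines 21 of the 51 genes rose and 7 fell against WT, where 18.4% of all genes tested rose and 20.4% fell. In TFoCa lines 18 rose and 0 fell against WT, where 5.25% of all genes rose and 3.52% fell. The count of 0 came from limma; 1 gene of the set had a negative change with an unadjusted p under 0.05, and edgeR and DESeq2 also called 0. The median log2 fold change of the 51 genes was 0.53 in TMut and 0.64 in TFoCa, beside 0.00 and -0.02 over all genes tested. Set against TFoCa, TMut lines had 8 genes that rose and 13 that fell, where 17.3% and 18.5% of all genes did, and the median was -0.01, beside -0.00 over all genes. Of the genes, 15 rose in both mutants, 3 in TFoCa with no call in TMut, and 6 rose and 7 fell in TMut with no call in TFoCa. In TFoCa the 18 rises numbered 8 without WT replicate 1 or WT replicate 3 and 6 without WT replicate 2, and 3 genes were called as falls without TFoCa replicate 1.

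Libraries did not overlap between genotypes for many of the genes. Both TMut lines lay above all WT lines for 28 genes and below them for 13 (33.4% and 33.6% of all genes tested). Both TFoCa lines lay above all WT lines for 31 genes and below them for 2, against 21% and 24.2% of all genes. Between TMut and TFoCa the counts were 15 above and 16 below (33.9% and 33.5% of all genes).

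**Figure D1:**
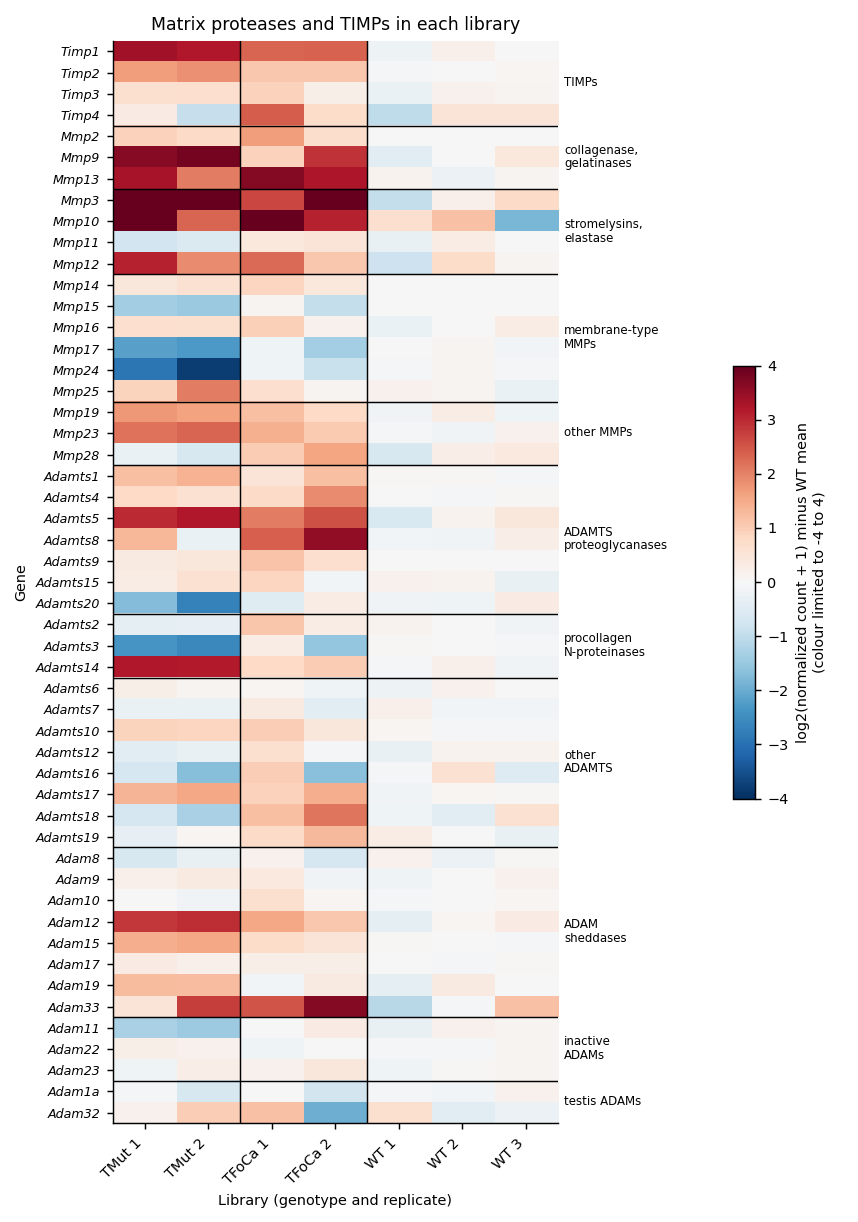
Each row is 1 of the 51 genes, grouped by class, and each column is a library; colour gives log2(normalized count + 1) minus the WT mean, limited to -4 to 4. Timp1, Mmp3 and Adamts5 are red in all 4 mutant libraries, whereas Mmp24 and Adamts3 are blue in both TMut libraries and differ between the TFoCa replicates.

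**Figure D2:**
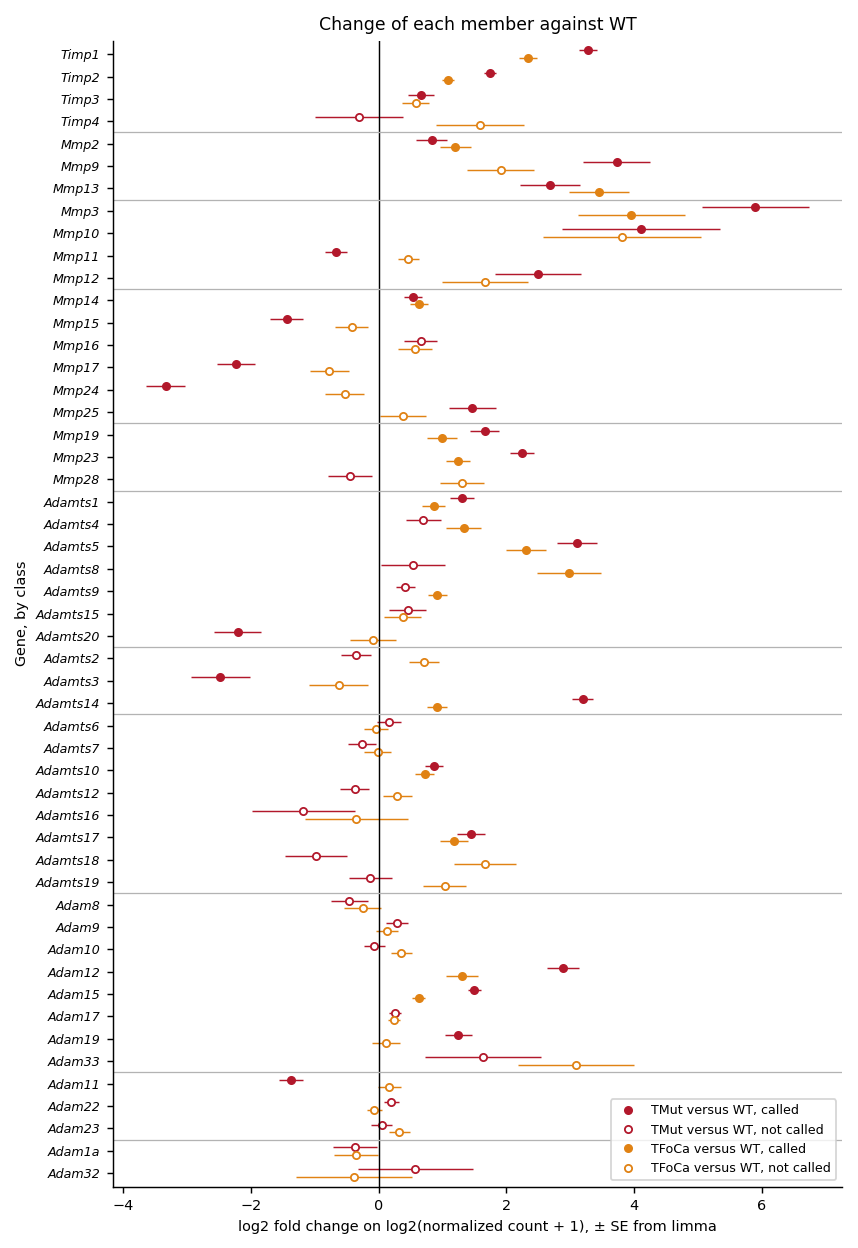
Points are log2 fold changes against WT with their standard error from limma, TMut in red and TFoCa in orange, filled where the gene was called. Of the genes, 15 have both points filled on the right of 0, and no TFoCa point on the left of 0 is filled.

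Of the 4 TIMPs, 3 rose in TMut against WT, 2 rose in TFoCa against WT and 2 rose in TMut against TFoCa. Of all genes tested, 18.4%, 5.25% and 17.3% rose in these comparisons, and 20.4%, 3.52% and 18.5% fell. The same shares stand beside the counts of each class below. The median log2 fold change of the 4 TIMPs was 1.21 in TMut versus WT, 1.33 in TFoCa versus WT and 0.38 in TMut versus TFoCa. Timp1, a secreted inhibitor of most soluble MMPs, had 4204 and 3766 normalized counts in TMut lines, 2062 and 2125 in TFoCa lines and 359, 473 and 409.5 in WT lines. The 3 genotypes did not overlap, with TMut highest and WT lowest. The log2 fold change was 3.27 ± 0.14 (adjusted p = 4.34e-05) in TMut versus WT, 2.35 ± 0.14 (adjusted p = 0.00124) in TFoCa versus WT and 0.93 ± 0.15 (adjusted p = 0.00455) in TMut versus TFoCa. Timp2, which inhibits MMPs and also takes part in the activation of pro-MMP2 by Mmp14 at the cell surface, had 16211 and 17776 normalized counts in TMut lines, 10742 and 10645 in TFoCa lines and 4853, 4994 and 5333 in WT lines. Its 3 genotypes were ordered in the same way without overlap. Timp2 had log2 fold changes of 1.75 ± 0.09 (adjusted p = 5.49e-05) in TMut versus WT, 1.08 ± 0.09 (adjusted p = 0.00207) in TFoCa versus WT and 0.67 ± 0.10 (adjusted p = 0.00338) in TMut versus TFoCa. All 6 of these calls held without each library in turn.

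Timp3, the matrix-bound TIMP that also inhibits ADAM17 and several ADAMTS proteases, had 3032 and 3101 normalized counts in TMut lines, 3634 and 2291 in TFoCa lines and 1609.8, 2158 and 2071 in WT lines. Both TMut lines and both TFoCa lines lay above the 3 WT lines, and the TFoCa lines lay on either side of the TMut lines. Timp3 rose in TMut by 0.67 ± 0.21 (adjusted p = 0.0365) on the log2 scale, and its log2 fold change in TFoCa was 0.58 ± 0.21 (adjusted p = 0.127). Timp3 lost its call in TMut versus WT when either TMut line or any WT line was left out (adjusted p = 0.0560 to 0.138). Timp3 was called in TFoCa versus WT only with DESeq2 or without TFoCa replicate 2 (adjusted p = 0.0259 to 0.0493), and its log2 value there ran from 0.25 to 0.91 over the alternatives. In a GENCODE annotation of GRCm38, 21.3% of the Timp3 exon bases are shared with Syn3 on the opposite strand, whose normalized counts were 58.7 and 51.6 in TMut lines, 87.2 and 62.1 in TFoCa lines and 118, 98.2 and 94.3 in WT lines, and the sources used here do not say whether counting used strand. Timp4, a TIMP with a more restricted expression, had 69.1 and 28.8 normalized counts in TMut lines, 304 and 93.7 in TFoCa lines and 26.7, 79.9 and 79.4 in WT lines. Timp4 was called in no comparison by limma, and TMut lines overlapped WT lines. Timp4 was called in TMut versus TFoCa only with DESeq2 or without TFoCa replicate 2 (adjusted p = 0.0183 to 0.0404), and its log2 value there ran from -2.74 to -1.05 over the alternatives.

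**Figure D3:**
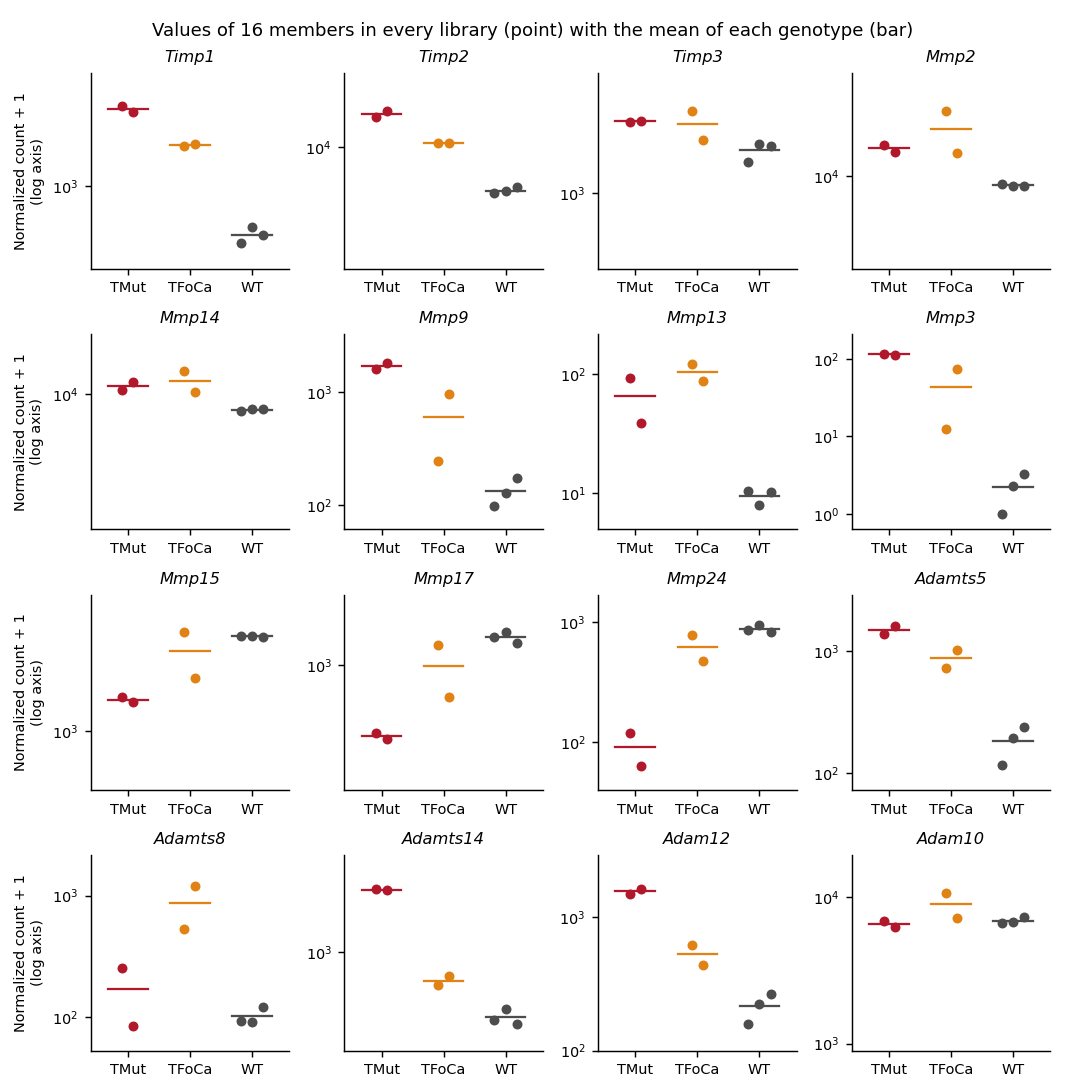
Points are normalized counts + 1 of 16 of the genes in each library on log axes, with TMut, TFoCa and WT from left to right and a bar at the mean of each genotype. Timp1 and Timp2 step down from TMut to TFoCa to WT without overlap, Adamts8 is highest in TFoCa, and Mmp15, Mmp17 and Mmp24 are lowest in TMut with TFoCa replicates apart.

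Among the collagenase and gelatinases, all 3 genes rose in TMut and 2 of 3 in TFoCa. Across the group, median log2 fold changes were 2.68 in TMut versus WT, 1.91 in TFoCa versus WT and -0.37 in TMut versus TFoCa. Mmp2, gelatinase A, which cuts denatured collagen and basement membrane collagen, had 16258 and 14653 normalized counts in TMut lines, 27863 and 14214 in TFoCa lines and 8856, 8588 and 8559 in WT lines. All 4 mutant lines lay above all WT lines, and the TFoCa replicates differed from each other by more than the TMut lines differed from WT. Mmp2 rose by a log2 fold change of 0.83 ± 0.24 (adjusted p = 0.0294) in TMut and by 1.20 ± 0.24 (adjusted p = 0.0243) in TFoCa. Mmp2 lost its call in TMut versus WT when either TMut line or any WT line was left out (adjusted p = 0.0642 to 0.119). Mmp2 lost its call in TFoCa versus WT when any WT line was left out (adjusted p = 0.0730 to 0.0831), and the log2 value was 0.71 with TFoCa replicate 1 left out.

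Mmp9, gelatinase B, had 1593 and 1815 normalized counts in TMut lines, 243 and 958 in TFoCa lines and 95.7, 126 and 173 in WT lines. TMut lines were highest, WT lines lowest, and the TFoCa lines stood apart from each other between them. Mmp9 rose by a log2 fold change of 3.72 ± 0.52 (adjusted p = 0.00140) in TMut versus WT and by 1.81 ± 0.57 (adjusted p = 0.0414) in TMut versus TFoCa, and its log2 fold change in TFoCa versus WT was 1.91 ± 0.52 (adjusted p = 0.0622). Mmp9 lost its call in TMut versus TFoCa when either TMut line, TFoCa replicate 1 or any WT line was left out and with edgeR's quasi-likelihood test and a fit to these 2 genotypes alone (adjusted p = 0.0561 to 0.154), and the log2 value was 0.83 with TFoCa replicate 1 left out and 2.80 with TFoCa replicate 2 left out. Mmp9 was called in TFoCa versus WT only with edgeR, DESeq2 or without TFoCa replicate 1 (adjusted p = 7.68e-05 to 0.0363), and its log2 value there ran from 0.92 to 2.90 over the alternatives. Mmp13, a collagenase that cuts fibrillar collagen, had 92.1 and 38.4 normalized counts in TMut lines, 121 and 87.6 in TFoCa lines and 9.41, 6.97 and 9.20 in WT lines. The mutant lines lay above WT without overlap, and TMut and TFoCa lines overlapped each other. Mmp13 rose by a log2 fold change of 2.68 ± 0.47 (adjusted p = 0.00374) in TMut and by 3.46 ± 0.47 (adjusted p = 0.00737) in TFoCa.

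Of the stromelysins and the macrophage elastase, 3 of 4 rose and 1 fell in TMut, and 1 of 4 rose in TFoCa. Over these genes the log2 fold changes had medians of 3.30 in TMut versus WT, 2.74 in TFoCa versus WT and 0.56 in TMut versus TFoCa. Mmp3, a stromelysin that cuts proteoglycans and activates other pro-MMPs, had 117 and 114 normalized counts in TMut lines, 11.5 and 73.0 in TFoCa lines and 0, 1.27 and 2.30 in WT lines. WT libraries held 0, 2 and 2 reads of it, so the fitted fold change depends on the pseudocount. Mmp3 rose by a log2 fold change of 5.90 ± 0.84 (adjusted p = 0.00152) in TMut, and by 3.76 with a pseudocount of 8. Its rise in TFoCa was a log2 fold change of 3.96 ± 0.84 (adjusted p = 0.0287). Between TMut and TFoCa the log2 fold change of Mmp3 was 1.94 ± 0.92 (adjusted p = 0.138), and 3.22 without TFoCa replicate 2. Mmp3 lost its call in TFoCa versus WT when TFoCa replicate 2 or any WT line was left out and with a pseudocount of 8 (adjusted p = 0.0530 to 0.0945), and the log2 value was 2.12 with a pseudocount of 8.

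Mmp10, a second stromelysin, had 212 and 16.8 normalized counts in TMut lines, 82.4 and 29.2 in TFoCa lines and 4.71, 6.97 and 0 in WT lines. All 4 mutant lines lay above the WT lines, and TMut replicate 1 was far above TMut replicate 2. Mmp10 rose in TMut by a log2 fold change of 4.11 ± 1.24 (adjusted p = 0.0331), or 2.68 with a pseudocount of 8, and its log2 fold change in TFoCa was 3.81 ± 1.24 (adjusted p = 0.0991). Mmp10 lost its call in TMut versus WT when TMut replicate 1 or WT replicate 1 or 3 was left out (adjusted p = 0.0553 to 0.198), and the log2 value was 2.32 with TMut replicate 1 left out. Mmp10 was called in TFoCa versus WT only with DESeq2 (adjusted p = 0.00730), and its log2 value there ran from 2.33 to 4.55 over the alternatives. Mmp12, the macrophage elastase, had 62.2 and 26.4 normalized counts in TMut lines, 34.5 and 14.6 in TFoCa lines and 3.14, 11.4 and 6.90 in WT lines. The mutant lines again lay above the WT lines, at low levels throughout. Mmp12 rose in TMut by 2.49 ± 0.68 (adjusted p = 0.0224) on the log2 scale, and its log2 fold change in TFoCa was 1.67 ± 0.68 (adjusted p = 0.171). Mmp12 lost its call in TMut versus WT when TMut replicate 1 or WT replicate 1 or 3 was left out (adjusted p = 0.0577 to 0.126).

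Mmp11, a stromelysin that is activated inside the cell by furin and is known to cut serpins, moved the other way. Mmp11 had 1779.6 and 2042 normalized counts in TMut lines, 4052 and 4307 in TFoCa lines and 2449, 3724 and 3028 in WT lines. TMut lines lay below all other lines, and TFoCa lines lay above all WT lines. Mmp11 fell with a log2 fold change of -0.66 ± 0.17 (adjusted p = 0.0182) in TMut versus WT and of -1.13 ± 0.19 (adjusted p = 0.00449) in TMut versus TFoCa, and its log2 fold change in TFoCa versus WT was 0.47 ± 0.17 (adjusted p = 0.136). Mmp11 lost its call in TMut versus WT when TMut replicate 1 or WT replicate 3 was left out (adjusted p = 0.0557 to 0.0949).

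Mmp13, Mmp12, Mmp3 and Mmp10 lie close together on chromosome 9, in this order in the RefSeq gene order, with Mmp1b and Mmp1a, which were not analysed here, between them. Their promoters are shown because these neighbours were all higher in both mutants than in WT, and because human stromelysin and collagenase genes are textbook targets of AP-1, the dimer of Fos and Jun proteins, which binds TGAGTCA. The genes shown were chosen after their values were seen. The windows hold the 250 bases before a RefSeq transcription start in GRCm38.p6, 5′ to 3′ on the strand of the gene, with TGAGTCA or its reverse complement TGACTCA in capitals. The counts were made on build mm39, so these coordinates belong to the promoters only. The windows are chr9:7272264-7272513, plus strand for Mmp13, chr9:7344147-7344396, plus strand and chr9:7347124-7347373, plus strand for both listed starts of Mmp12, chr9:7445572-7445821, plus strand for Mmp3 and chr9:7502092-7502341, plus strand for Mmp10.
Mmp13: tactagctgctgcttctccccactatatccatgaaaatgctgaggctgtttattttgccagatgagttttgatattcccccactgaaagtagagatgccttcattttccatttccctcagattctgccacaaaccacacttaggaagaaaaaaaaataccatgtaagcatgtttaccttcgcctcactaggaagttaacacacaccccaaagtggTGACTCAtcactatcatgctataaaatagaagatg
Mmp12, first start: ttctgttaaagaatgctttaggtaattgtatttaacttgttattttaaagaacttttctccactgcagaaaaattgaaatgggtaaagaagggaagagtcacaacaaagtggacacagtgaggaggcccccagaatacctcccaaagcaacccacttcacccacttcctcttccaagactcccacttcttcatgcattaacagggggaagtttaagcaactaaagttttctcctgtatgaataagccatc
Mmp12, second start: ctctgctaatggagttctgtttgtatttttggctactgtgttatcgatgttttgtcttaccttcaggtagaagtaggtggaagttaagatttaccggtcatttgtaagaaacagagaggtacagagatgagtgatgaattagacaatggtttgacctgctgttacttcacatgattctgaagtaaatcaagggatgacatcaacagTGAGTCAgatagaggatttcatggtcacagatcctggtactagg
Mmp3: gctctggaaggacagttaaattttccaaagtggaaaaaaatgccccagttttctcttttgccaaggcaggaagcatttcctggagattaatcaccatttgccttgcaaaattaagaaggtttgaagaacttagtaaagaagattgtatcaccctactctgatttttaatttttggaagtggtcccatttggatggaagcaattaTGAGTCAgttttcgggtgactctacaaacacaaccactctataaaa
Mmp10: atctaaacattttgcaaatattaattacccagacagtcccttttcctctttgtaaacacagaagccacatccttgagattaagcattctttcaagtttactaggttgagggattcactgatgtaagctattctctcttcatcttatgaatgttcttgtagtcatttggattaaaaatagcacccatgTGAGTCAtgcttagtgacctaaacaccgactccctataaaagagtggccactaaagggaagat
The motif begins at position -35 before the start of Mmp13, -46 before that of Mmp3 and -63 before that of Mmp10. It is not in the window of the first listed Mmp12 start and begins at -44 before the second. RefSeq promoters were matched for 32 of the 51 genes. By the first listed start of each gene, the motif on either strand was in the window of 3 of the 32 (9.38%), beside 396 of 12726 genes of the table with a promoter (3.11%). A match is a string of letters and says nothing of binding in these cells.

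Membrane-type MMPs split in TMut: 2 of 6 rose and 3 fell against WT, and 3 fell against TFoCa, whereas 1 of 6 rose in TFoCa. Median log2 fold changes stood at -0.45 in TMut versus WT, -0.02 in TFoCa versus WT and -0.56 in TMut versus TFoCa. Transcripts that mark neurons moved with the falls: the 6 fixed markers summed to 8118 to 13921 normalized counts in TMut lines, 39527 to 41493 in TFoCa lines and 51972 to 56158 in WT lines, and all 6 fell in TMut against WT. Neuron markers were not alone in this: 8 of 10 neural stem cell, all 5 astrocyte and 3 of 5 oligodendrocyte lineage markers also fell in TMut. Another neural stem cell marker, Vim, rose. The part of any of these shifts in the falls described here was not tested. Mmp14, the main membrane-type collagenase and activator of pro-MMP2, had 10754 and 12093 normalized counts in TMut lines, 14380.3 and 10436 in TFoCa lines and 7710.3, 7921 and 7988 in WT lines. The 4 mutant lines lay above the WT lines, and TMut and TFoCa lines overlapped. Mmp14 rose by a log2 fold change of 0.53 ± 0.14 (adjusted p = 0.0196) in TMut and by 0.64 ± 0.14 (adjusted p = 0.0321) in TFoCa. Mmp14 lost its call in TMut versus WT when TMut replicate 2 or any WT line was left out (adjusted p = 0.0511 to 0.122). Mmp14 lost its call in TFoCa versus WT when TFoCa replicate 1 or any WT line was left out (adjusted p = 0.0577 to 0.103), and the log2 value was 0.41 with TFoCa replicate 1 left out.

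Mmp24, a membrane-type MMP known from neurons and neural stem cells, where it cuts N-cadherin, had 117 and 62.4 normalized counts in TMut lines, 775 and 471 in TFoCa lines and 854, 942 and 832 in WT lines. TMut lines lay far below all others, and both TFoCa lines lay between TMut and WT. Mmp24 fell with a log2 fold change of -3.34 ± 0.31 (adjusted p = 0.000276) in TMut versus WT and of -2.80 ± 0.34 (adjusted p = 0.00197) in TMut versus TFoCa, with -0.53 ± 0.31 (adjusted p = 0.326) in TFoCa versus WT. In the same annotation its exons share 13.6% of their bases with BC029722 on the opposite strand, which had 716 and 599 normalized counts in TMut lines, 471 and 466 in TFoCa lines and 469, 427 and 447 in WT lines. Mmp17, a membrane-type MMP attached by a lipid anchor, had 346 and 313 normalized counts in TMut lines, 1363 and 604 in TFoCa lines and 1549, 1686 and 1426 in WT lines. TMut lines were again lowest, and the TFoCa replicates differed, with replicate 2 well below the WT lines and replicate 1 just below them. Mmp17 fell with a log2 fold change of -2.23 ± 0.30 (adjusted p = 0.00122) in TMut versus WT and of -1.46 ± 0.33 (adjusted p = 0.0132) in TMut versus TFoCa, with -0.77 ± 0.30 (adjusted p = 0.158) in TFoCa versus WT. Mmp17 lost its call in TMut versus TFoCa when TMut replicate 2 was left out and with a fit to these 2 genotypes alone (adjusted p = 0.0554 to 0.0666), and the log2 value was -0.87 with TFoCa replicate 1 left out. Mmp17 was called in TFoCa versus WT only without TFoCa replicate 1 (adjusted p = 0.00954), and its log2 value there ran from -1.36 to -0.19 over the alternatives.

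Mmp15, a transmembrane relative of Mmp14, had 1709 and 1585 normalized counts in TMut lines, 4762 and 2321 in TFoCa lines and 4478, 4478 and 4426 in WT lines. TMut lines were lowest, TFoCa replicate 1 lay above the WT lines and TFoCa replicate 2 below them. Mmp15 fell with a log2 fold change of -1.44 ± 0.26 (adjusted p = 0.00399) in TMut versus WT and of -1.01 ± 0.28 (adjusted p = 0.0268) in TMut versus TFoCa. Mmp15 lost its call in TMut versus TFoCa when either TMut line was left out and with a fit to these 2 genotypes alone (adjusted p = 0.0648 to 0.114), and the log2 value was -0.50 with TFoCa replicate 1 left out and -1.53 with TFoCa replicate 2 left out. Mmp15 was called in TFoCa versus WT only without TFoCa replicate 1 (adjusted p = 0.00798), and its log2 value there ran from -0.94 to 0.095 over the alternatives. Mmp25, another lipid-anchored member known from leukocytes, had 323 and 714 normalized counts in TMut lines, 274 and 185 in TFoCa lines and 195, 185 and 143 in WT lines. Both TMut lines lay above all other lines. Mmp25 rose by a log2 fold change of 1.47 ± 0.36 (adjusted p = 0.0151) in TMut versus WT. Mmp25 lost its call in TMut versus WT when TMut replicate 2 or WT replicate 3 was left out (adjusted p = 0.0545 to 0.0938), and the log2 value was 0.90 with TMut replicate 2 left out. Mmp25 was called in TMut versus TFoCa only with DESeq2 or without TMut replicate 1 (adjusted p = 0.0127 to 0.0141), and its log2 value there ran from 0.52 to 1.66 over the alternatives. Mmp16, the remaining membrane-type gene, was not called by limma. Mmp16 was called in TMut versus WT only with a fit to these 2 genotypes alone or without either TFoCa line (adjusted p = 0.0286 to 0.0304), and its log2 value there ran from 0.52 to 0.80 over the alternatives.

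Of the other MMPs, 2 of 3 rose in each mutant. The median log2 fold change of the class was 1.66 in TMut versus WT, 1.24 in TFoCa versus WT and 0.67 in TMut versus TFoCa. Mmp23, a membrane MMP without the usual haemopexin domain, had 938 and 1044 normalized counts in TMut lines, 564 and 429.6 in TFoCa lines and 201, 190.2 and 237 in WT lines. The genotypes did not overlap and were ordered like those of Timp1. Mmp23 rose by a log2 fold change of 2.24 ± 0.19 (adjusted p = 0.000210) in TMut versus WT, 1.24 ± 0.19 (adjusted p = 0.0103) in TFoCa versus WT and 1.01 ± 0.21 (adjusted p = 0.00936) in TMut versus TFoCa. Mmp23 lost its call in TMut versus TFoCa when TMut replicate 2 was left out (adjusted p = 0.0560). Mmp19, a secreted MMP that cuts basement membrane proteins, had 543 and 498 normalized counts in TMut lines, 376 and 282 in TFoCa lines and 149, 203 and 145 in WT lines, again without overlap. Mmp19 rose by a log2 fold change of 1.66 ± 0.23 (adjusted p = 0.00135) in TMut and by 0.99 ± 0.23 (adjusted p = 0.0391) in TFoCa. Mmp19 lost its call in TFoCa versus WT when either TMut line, TFoCa replicate 1 or any WT line was left out and with a fit to these 2 genotypes alone (adjusted p = 0.0501 to 0.129). Mmp19 was called in TMut versus TFoCa only with DESeq2 (adjusted p = 0.0465), and its log2 value there ran from 0.46 to 0.88 over the alternatives. Its exons share 22.3% of their bases with Tmem198b on the opposite strand, which had 1464 and 1126 normalized counts in TMut lines, 1678 and 1407 in TFoCa lines and 1238, 1348 and 1257 in WT lines, more than Mmp19 in every library. Mmp28, epilysin, was highest in TFoCa. It had 226 and 173 normalized counts in TMut lines, 546 and 819 in TFoCa lines and 173, 324 and 355 in WT lines. Its exons overlap a gene on the opposite strand that was also highest in TFoCa lines, described below with the other overlaps. Mmp28 fell with a log2 fold change of -1.75 ± 0.38 (adjusted p = 0.0112) in TMut versus TFoCa, and its log2 fold change in TFoCa versus WT was 1.30 ± 0.35 (adjusted p = 0.0581). Mmp28 lost its call in TMut versus TFoCa when TMut replicate 2 was left out (adjusted p = 0.0639). Mmp28 was called in TFoCa versus WT only with DESeq2 (adjusted p = 0.00369), and its log2 value there ran from 0.98 to 1.59 over the alternatives.

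Of the 7 ADAMTS proteoglycanases, which cut aggrecan, versican and other lecticans, 5 rose in TFoCa. In TMut 2 of 7 rose and 1 fell against WT, and 3 of 7 fell against TFoCa. Across the group, median log2 fold changes were 0.54 in TMut versus WT, 0.92 in TFoCa versus WT and -0.50 in TMut versus TFoCa. Adamts5, an aggrecanase, had 1388 and 1629 normalized counts in TMut lines, 727 and 1033 in TFoCa lines and 115, 194 and 239 in WT lines. All mutant lines lay above WT, and TMut lines lay above TFoCa lines. Adamts5 rose by a log2 fold change of 3.10 ± 0.31 (adjusted p = 0.000391) in TMut and by 2.31 ± 0.31 (adjusted p = 0.00737) in TFoCa, and the log2 difference between the mutants was 0.79 ± 0.34 (adjusted p = 0.108). Adamts5 was called in TMut versus TFoCa only with the replicate block or without WT replicate 1 (adjusted p = 0.0389 to 0.0410), and its log2 value there ran from 0.54 to 1.05 over the alternatives. Adamts1, its neighbour on chromosome 16 in the RefSeq gene order, cuts versican and aggrecan and had 3702 and 4225 normalized counts in TMut lines, 2317 and 3666 in TFoCa lines and 1654, 1646 and 1518 in WT lines. The mutant lines lay above WT. Adamts1 rose by a log2 fold change of 1.30 ± 0.18 (adjusted p = 0.00148) in TMut and by 0.86 ± 0.18 (adjusted p = 0.0294) in TFoCa. Between TMut and TFoCa its log2 fold change was 0.44 ± 0.20 (adjusted p = 0.126), and 0.77 without TFoCa replicate 2. Adamts1 lost its call in TFoCa versus WT when any WT line was left out (adjusted p = 0.0810 to 0.100), and the log2 value was 0.53 with TFoCa replicate 2 left out.

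Adamts8, an ADAMTS protease able to cut aggrecan, had 253 and 84.0 normalized counts in TMut lines, 532 and 1192 in TFoCa lines and 91.8, 90.6 and 121 in WT lines. TFoCa lines were highest, and TMut lines lay on either side of the WT lines. Adamts8 rose with a log2 fold change of 2.98 ± 0.50 (adjusted p = 0.0136) in TFoCa versus WT and fell with a log2 fold change of -2.44 ± 0.55 (adjusted p = 0.0133) in TMut versus TFoCa, with 0.54 ± 0.50 (adjusted p = 0.429) in TMut versus WT. Adamts8 lost its call in TFoCa versus WT when WT replicate 1 or 2 was left out (adjusted p = 0.0515 to 0.0546). Adamts8 lost its call in TMut versus TFoCa when TMut replicate 2 or TFoCa replicate 2 was left out (adjusted p = 0.0568 to 0.0587). In the RefSeq gene order its neighbour on chromosome 9 is Adamts15, another proteoglycanase, which was not called by limma. Adamts9, a versicanase, had 1464 and 1556 normalized counts in TMut lines, 2517 and 1818 in TFoCa lines and 1129.7, 1111 and 1150.4 in WT lines, with TFoCa lines highest and WT lines lowest. Adamts9 rose with a log2 fold change of 0.92 ± 0.15 (adjusted p = 0.0114) in TFoCa versus WT and fell with a log2 fold change of -0.50 ± 0.16 (adjusted p = 0.0430) in TMut versus TFoCa. Adamts9 lost its call in TFoCa versus WT when WT replicate 2 was left out (adjusted p = 0.0523). Adamts9 lost its call in TMut versus TFoCa when either TMut line, TFoCa replicate 1 or any WT line was left out and with a fit to these 2 genotypes alone (adjusted p = 0.0655 to 0.139), and the log2 value was -0.27 with TFoCa replicate 1 left out. Adamts9 was called in TMut versus WT only with edgeR, DESeq2, TMM factors, a fit to these 2 genotypes alone or without either TFoCa line (adjusted p = 0.0104 to 0.0438), and its log2 value there ran from 0.37 to 0.46 over the alternatives.

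Adamts4, an aggrecanase known to cut the brain lectican brevican, had 1601 and 1425 normalized counts in TMut lines, 1596 and 3426 in TFoCa lines and 927, 898 and 969 in WT lines. The mutant lines lay above WT, and TFoCa replicate 2 was the highest line. Adamts4 rose in TFoCa by 1.33 ± 0.28 (adjusted p = 0.0271) on the log2 scale, and its log2 fold change in TMut was 0.70 ± 0.28 (adjusted p = 0.0818). Adamts4 lost its call in TFoCa versus WT when any WT line was left out (adjusted p = 0.0823 to 0.0898), and the log2 value was 0.78 with TFoCa replicate 2 left out. Adamts4 was called in TMut versus WT only with DESeq2, a fit to these 2 genotypes alone or without either TFoCa line (adjusted p = 0.00217 to 0.0388), and its log2 value there ran from 0.61 to 0.78 over the alternatives. Adamts4 was called in TMut versus TFoCa only without TFoCa replicate 1 (adjusted p = 0.00458), and its log2 value there ran from -1.18 to -0.079 over the alternatives. Adamts20, a versicanase known for mouse coat colour, had 96.8 and 49.2 normalized counts in TMut lines, 232 and 398 in TFoCa lines and 290.3, 287 and 406 in WT lines. TMut lines lay below all others, and TFoCa and WT lines overlapped. Adamts20 fell with a log2 fold change of -2.21 ± 0.37 (adjusted p = 0.00293) in TMut versus WT and of -2.12 ± 0.40 (adjusted p = 0.00697) in TMut versus TFoCa.

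The 3 procollagen N-proteinases, which trim the amino end of fibrillar procollagens, had 1 rise and 1 fall in TMut against WT, 1 rise in TFoCa against WT, and 1 rise and 2 falls in TMut against TFoCa. Over these genes the log2 fold changes had medians of -0.35 in TMut versus WT, 0.71 in TFoCa versus WT and -1.06 in TMut versus TFoCa. Adamts14 had 2991 and 2927 normalized counts in TMut lines, 563 and 659.7 in TFoCa lines and 309, 376 and 289.9 in WT lines. TMut lines were far above TFoCa lines, which were above WT lines. Adamts14 rose by a log2 fold change of 3.19 ± 0.16 (adjusted p = 4.65e-05) in TMut versus WT, 0.91 ± 0.16 (adjusted p = 0.0140) in TFoCa versus WT and 2.28 ± 0.17 (adjusted p = 0.00116) in TMut versus TFoCa. Adamts14 lost its call in TFoCa versus WT when WT replicate 1 or 3 was left out (adjusted p = 0.0502 to 0.0540). Adamts3, which also processes the lymphangiogenic factor VEGF-C, had 119 and 102 normalized counts in TMut lines, 766 and 209 in TFoCa lines and 639, 629 and 589 in WT lines. TMut lines were lowest, and the TFoCa lines lay on either side of the WT lines. Adamts3 fell with a log2 fold change of -2.48 ± 0.46 (adjusted p = 0.00492) in TMut versus WT and of -1.86 ± 0.51 (adjusted p = 0.0258) in TMut versus TFoCa. Adamts3 lost its call in TMut versus TFoCa when either TMut line was left out and with a fit to these 2 genotypes alone (adjusted p = 0.0602 to 0.109), and the log2 value was -0.92 with TFoCa replicate 1 left out and -2.79 with TFoCa replicate 2 left out. Adamts3 was called in TFoCa versus WT only without TFoCa replicate 1 (adjusted p = 0.0128), and its log2 value there ran from -1.56 to 0.31 over the alternatives. Adamts2, the main processor of type I procollagen in skin, had 439 and 459 normalized counts in TMut lines, 1237 and 706 in TFoCa lines and 624, 576 and 520.0 in WT lines. TFoCa lines were highest and TMut lines lowest. Adamts2 fell with a log2 fold change of -1.06 ± 0.26 (adjusted p = 0.0167) in TMut versus TFoCa and was not called against WT by limma. Adamts2 lost its call in TMut versus TFoCa when either TMut line was left out and with a fit to these 2 genotypes alone (adjusted p = 0.0537 to 0.0644), and the log2 value was -0.65 with TFoCa replicate 1 left out. Adamts2 was called in TFoCa versus WT only with DESeq2 or without TFoCa replicate 2 (adjusted p = 0.0139 to 0.0238), and its log2 value there ran from 0.30 to 1.11 over the alternatives.

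The promoters of Mmp24 and Adamts14 are shown because CpG dinucleotides are the sites at which TET enzymes act, and because these 2 genes had large changes of opposite direction in TMut. They too were chosen after their values were seen. Capitals mark each CG, and the windows are chr2:155775092-155775341, plus strand for Mmp24 and chr10:61273420-61273669, minus strand for Adamts14, again 250 bases before the RefSeq start in GRCm38.p6.
Mmp24: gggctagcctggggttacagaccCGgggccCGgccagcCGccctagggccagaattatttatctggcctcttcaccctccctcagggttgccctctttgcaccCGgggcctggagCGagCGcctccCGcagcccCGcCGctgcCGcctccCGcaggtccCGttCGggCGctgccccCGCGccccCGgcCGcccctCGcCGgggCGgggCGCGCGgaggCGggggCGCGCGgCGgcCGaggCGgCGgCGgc
Adamts14: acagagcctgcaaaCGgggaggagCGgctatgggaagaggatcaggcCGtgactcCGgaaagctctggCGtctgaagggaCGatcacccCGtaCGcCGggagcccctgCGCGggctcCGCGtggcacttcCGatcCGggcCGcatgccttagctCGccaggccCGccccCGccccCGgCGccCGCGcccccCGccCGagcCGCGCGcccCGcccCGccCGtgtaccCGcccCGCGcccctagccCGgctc
The Mmp24 window holds 33 CpG dinucleotides and the Adamts14 window 35, beside a median of 15 over the 12726 genes of the table with a promoter. Over the 32 protease and TIMP genes with a promoter the median was also 15. It was 13 for the 15 of them that rose in TMut versus WT, 16 for the 12 not called and 32 for the 5 that fell (Mmp11 and Mmp15 with 14 each, Adamts20 with 32, Mmp24 with 33 and Adamts3 with 35). In TFoCa versus WT the median was 13 for the 11 that rose and 15 for the 21 not called. Among those that rose, Mmp3, Mmp10 and Mmp13 had 1 each, Mmp12 had 0 and Adamts14 had 35. Methylation was not measured in these files, and these counts describe sequence alone.

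Of the 8 other ADAMTS genes, 2 rose in each mutant and 2 fell in TMut against TFoCa. Median log2 fold changes stood at -0.20 in TMut versus WT, 0.51 in TFoCa versus WT and -0.46 in TMut versus TFoCa. Adamts10, a protease known for its part in fibrillin microfibrils, had 5465 and 5385 normalized counts in TMut lines, 5825 and 4116 in TFoCa lines and 3163, 2899 and 2869 in WT lines. The mutant lines lay above WT and overlapped each other. Adamts10 rose by a log2 fold change of 0.87 ± 0.15 (adjusted p = 0.00314) in TMut and by 0.72 ± 0.15 (adjusted p = 0.0246) in TFoCa. Adamts10 lost its call in TFoCa versus WT when any WT line was left out (adjusted p = 0.0612 to 0.0908), and the log2 value was 0.47 with TFoCa replicate 1 left out. Adamts17, whose human counterpart is tied to short stature with lens defects, had 438 and 498 normalized counts in TMut lines, 324 and 466 in TFoCa lines and 155, 181 and 177 in WT lines, with the same order. Adamts17 rose by a log2 fold change of 1.45 ± 0.22 (adjusted p = 0.00182) in TMut and by 1.18 ± 0.22 (adjusted p = 0.0171) in TFoCa. Adamts17 lost its call in TFoCa versus WT when any WT line was left out (adjusted p = 0.0608 to 0.0619). Adamts18 had 23.0 and 14.4 normalized counts in TMut lines, 86.2 and 166 in TFoCa lines and 32.9, 26.6 and 57.5 in WT lines. TFoCa lines were highest and TMut lines lowest. Adamts18 fell with a log2 fold change of -2.65 ± 0.53 (adjusted p = 0.00850) in TMut versus TFoCa. Adamts19 had 48.4 and 64.8 normalized counts in TMut lines, 104 and 153 in TFoCa lines and 76.1, 61.5 and 49.5 in WT lines, with TFoCa lines above all others. Adamts19 fell with a log2 fold change of -1.16 ± 0.37 (adjusted p = 0.0438) in TMut versus TFoCa. Adamts19 lost its call in TMut versus TFoCa when either TMut line, TFoCa replicate 2 or any WT line was left out and with a fit to these 2 genotypes alone (adjusted p = 0.0597 to 0.158). By limma neither was called against WT. Adamts18 was called in TFoCa versus WT only with DESeq2 (adjusted p = 0.0144), and its log2 value there ran from 1.20 to 2.13 over the alternatives. Adamts19 was called in TFoCa versus WT only with DESeq2 (adjusted p = 0.0489), and its log2 value there ran from 0.76 to 1.31 over the alternatives.

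Of the 8 ADAMs with protease activity, 3 rose in TMut against WT, 2 rose in TFoCa against WT, and 3 rose in TMut against TFoCa. The median log2 fold change of the class was 0.77 in TMut versus WT, 0.30 in TFoCa versus WT and 0.09 in TMut versus TFoCa. Adam12, a sheddase known from mesenchyme and muscle progenitors, had 1499 and 1618 normalized counts in TMut lines, 617 and 441 in TFoCa lines and 158, 221 and 265 in WT lines. The genotypes did not overlap. Adam12 rose by a log2 fold change of 2.88 ± 0.25 (adjusted p = 0.000220) in TMut versus WT, 1.31 ± 0.25 (adjusted p = 0.0199) in TFoCa versus WT and 1.58 ± 0.27 (adjusted p = 0.00507) in TMut versus TFoCa. Adam12 lost its call in TFoCa versus WT when TFoCa replicate 1 or WT replicate 2 was left out (adjusted p = 0.0646 to 0.0650). Adam15, which carries an integrin-binding motif beside its protease domain, had 4732 and 5006 normalized counts in TMut lines, 2871 and 2455 in TFoCa lines and 1797, 1722 and 1651 in WT lines, in the same order. Adam15 rose by a log2 fold change of 1.50 ± 0.11 (adjusted p = 0.000128) in TMut versus WT, 0.62 ± 0.11 (adjusted p = 0.0136) in TFoCa versus WT and 0.87 ± 0.12 (adjusted p = 0.00240) in TMut versus TFoCa. Adam15 lost its call in TFoCa versus WT when WT replicate 2 or 3 was left out (adjusted p = 0.0590 to 0.0615). An antisense gene, 4731419I09Rik, shares 20.6% of its exon bases and had between 26.5 and 80.4 normalized counts per library.

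Adam19, a sheddase of neuregulin known from heart development, had 4445 and 4374 normalized counts in TMut lines, 1709 and 2367 in TFoCa lines and 1442, 2376 and 1861 in WT lines. TMut lines lay above all others, and TFoCa and WT lines overlapped. Adam19 rose by a log2 fold change of 1.25 ± 0.22 (adjusted p = 0.00362) in TMut versus WT and by 1.13 ± 0.24 (adjusted p = 0.0103) in TMut versus TFoCa. The principal sheddases were not called by limma. Adam10, which makes the ligand-induced cut in Notch receptors, had 6909.8 and 6231 normalized counts in TMut lines, 10732 and 7193 in TFoCa lines and 6614, 6742 and 7266 in WT lines. TFoCa replicate 1 was the highest line, and TMut lines overlapped WT lines. The log2 fold change of Adam10 was -0.07 ± 0.16 (adjusted p = 0.777) in TMut and 0.36 ± 0.16 (adjusted p = 0.223) in TFoCa. Adam10 was called in TFoCa versus WT only without TFoCa replicate 2 (adjusted p = 0.0191), and its log2 value there ran from 0.067 to 0.64 over the alternatives. Adam10 was called in TMut versus TFoCa only without TFoCa replicate 2 (adjusted p = 0.00729), and its log2 value there ran from -0.71 to -0.13 over the alternatives. Adam17, which releases tumour necrosis factor and ligands of the epidermal growth factor receptor, had 3595 and 3314 normalized counts in TMut lines, 3388 and 3434 in TFoCa lines and 2927, 2786 and 2971 in WT lines. All mutant lines lay above all WT lines by a small margin. The log2 fold change of Adam17 was 0.25 ± 0.09 (adjusted p = 0.0578) in TMut and 0.24 ± 0.09 (adjusted p = 0.148) in TFoCa. Adam17 was called in TMut versus WT only with edgeR, TMM factors, a mean of at least 50, a fit to these 2 genotypes alone or without either TFoCa line (adjusted p = 0.0380 to 0.0461), and its log2 value there ran from 0.20 to 0.31 over the alternatives.

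Of the 3 ADAMs without protease activity, which serve as adhesion or receptor proteins in neurons, 1 fell in TMut, and the 3 were not called in TFoCa by limma. Adam11 had 492 and 449 normalized counts in TMut lines, 1205 and 1543 in TFoCa lines and 1001, 1379 and 1310.3 in WT lines. TMut lines lay below all others. Adam11 fell with a log2 fold change of -1.37 ± 0.18 (adjusted p = 0.00109) in TMut versus WT and of -1.53 ± 0.20 (adjusted p = 0.00227) in TMut versus TFoCa. The neuron, astrocyte and most neural stem cell markers described with the membrane-type MMPs moved with it, and their part was not tested. Adam22 and Adam23, the other 2 of the class, were not called by limma, nor were Adam1a and Adam32, known from testis. In all, 16 of the 51 genes were called in no comparison by limma: Adam1a, Adam8, Adam9, Adam10, Adam17, Adam22, Adam23, Adam32, Adam33, Adamts6, Adamts7, Adamts12, Adamts15, Adamts16, Mmp16 and Timp4. Their log2 fold changes ranged from -1.18 to 1.64 in TMut versus WT, from -0.39 to 3.09 in TFoCa versus WT and from -1.89 to 0.96 in TMut versus TFoCa. Besides Adam10, Adam17, Mmp16 and Timp4, given above, some of them were called under an alternative. Adam33 was called in TFoCa versus WT only with DESeq2 or the replicate block (adjusted p = 0.0157 to 0.0438), and its log2 value there ran from 2.06 to 3.68 over the alternatives. Adam33 was called in TMut versus WT only with the replicate block (adjusted p = 0.0495), and its log2 value there ran from 0.50 to 2.77 over the alternatives. Adamts12 was called in TMut versus TFoCa only with DESeq2 or without TFoCa replicate 2 (adjusted p = 0.0170 to 0.0302). Adam32 was called in TMut versus TFoCa only without TFoCa replicate 1 (adjusted p = 0.0460), and its log2 value there ran from -0.59 to 2.52 over the alternatives. Adamts7 was called in TMut versus TFoCa only without TFoCa replicate 2 (adjusted p = 0.0234), and its log2 value there ran from -0.64 to 0.15 over the alternatives.

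The balance of enzymes and inhibitors was described per library after dividing each normalized count by the summed exon length of the gene. This length took in every annotated exon, whichever transcript the cells use, so levels of different genes compare only roughly. Per kb of exon, Mmp2 had the highest mean of the 51 genes in each genotype, at 4585 in TMut, 6241 in TFoCa and 2571 in WT. It was followed in TMut by Timp1 (4488 per kb) and Timp2 (4362 per kb), and in WT by Adam10 (1399 per kb), Mmp14 (1321 per kb) and Timp2 (1299 per kb). Timp1 was at rank 2 in TMut, 3 in TFoCa and 8 in WT. The 4 TIMPs together came to 9279 and 9189 per kb in TMut lines, 5577 and 5423 in TFoCa lines and 1852, 2093 and 2098 in WT lines. The 16 MMPs together came to 9081 and 8898 per kb in TMut lines, 14182 and 9058 in TFoCa lines and 6325, 6844 and 6546 in WT lines. The ratio of summed MMP level to summed TIMP level was therefore 0.979 and 0.968 in TMut lines, 2.54 and 1.67 in TFoCa lines and 3.42, 3.27 and 3.12 in WT lines. The 3 genotypes did not overlap in this ratio, which rests on transcripts and carries no test. Mmp2 and Mmp14 together made up 73.0% and 71.7% of the MMP level in TMut lines and 75.3% and 65.9% in TFoCa lines. In WT lines they made up 62.0%, 56.6% and 59.3%, so the ratio depends largely on few genes. Mmp2 alone had 8266 and 4216 per kb in the TFoCa lines, which differed in the ratio. Timp1 made up 51.0% and 46.2% of the TIMP level in TMut lines, 41.6% and 44.1% in TFoCa lines and 21.8%, 25.4% and 22.0% in WT lines. Mmp3, Mmp10, Mmp12 and Mmp13 together made up 2.55% and 1.02% of the MMP level in TMut lines, 0.734% and 1.02% in TFoCa lines and 0.106%, 0.131% and 0.0867% in WT lines.

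**Figure D4:**
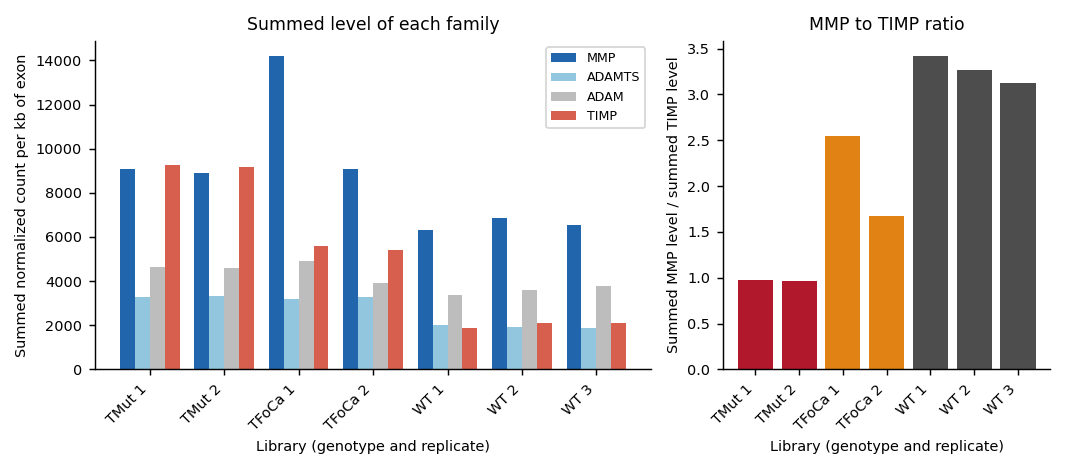
Left, the summed normalized count per kb of exon of each family in every library; right, the ratio of summed MMP to summed TIMP level. TIMP bars are highest in TMut, and the ratio is 0.968 to 0.979 in TMut, 1.67 to 2.54 in TFoCa and 3.12 to 3.42 in WT.

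Plasmin activates several pro-MMPs, and genes of its activation were described as the nearest pathway. Of the 11 genes in that list 9 were tested, and Plg and Serpinf2 were not analysed here. In TMut 7 of the 9 rose and 1 fell, in TFoCa 5 rose, and 7 rose and 1 fell in TMut versus TFoCa. Of all genes tested, 18.4% rose and 20.4% fell in TMut, and 5.25% rose and 3.52% fell in TFoCa. In TMut versus TFoCa 17.3% of all genes rose and 18.5% fell. The median log2 fold change of the 9 was 2.31 in TMut versus WT, 1.31 in TFoCa versus WT and 0.99 in TMut versus TFoCa. Plau, the urokinase activator, had 1312 and 1880.1 normalized counts in TMut lines, 405 and 349 in TFoCa lines and 134, 108 and 110.4 in WT lines. Plau rose by a log2 fold change of 3.74 ± 0.22 (adjusted p = 7.14e-05) in TMut versus WT, 1.68 ± 0.22 (adjusted p = 0.00615) in TFoCa versus WT and 2.06 ± 0.24 (adjusted p = 0.00182) in TMut versus TFoCa. For Plau, TMut lines were highest, WT lines lowest and TFoCa lines between them without overlap.

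The same order held for Serpine2, an inhibitor of thrombin and plasminogen activators, and for S100a10, which with Anxa2 docks plasminogen at the cell surface. Serpine2 had 21642 and 23863 normalized counts in TMut lines, 16779.7 and 15142 in TFoCa lines and 7120.3, 7959 and 6983 in WT lines. Its log2 fold change was 1.63 ± 0.11 (adjusted p = 0.000102) in TMut versus WT and 1.12 ± 0.11 (adjusted p = 0.00242) in TFoCa versus WT. S100a10 had 5939 and 7235 normalized counts in TMut lines, 3311 and 2053 in TFoCa lines and 752, 711 and 1042 in WT lines. Its log2 fold change was 2.99 ± 0.24 (adjusted p = 0.000181) in TMut versus WT and 1.66 ± 0.24 (adjusted p = 0.00887) in TFoCa versus WT. Serpini1, neuroserpin, an inhibitor of Plat made by neurons, was the gene of the list that fell, with 196 and 144 normalized counts in TMut lines, 571 and 497 in TFoCa lines and 584, 645 and 590.1 in WT lines. Serpini1 fell with a log2 fold change of -1.84 ± 0.19 (adjusted p = 0.000389) in TMut versus WT and of -1.66 ± 0.20 (adjusted p = 0.00207) in TMut versus TFoCa. The 7 rises in TMut versus TFoCa numbered 1 without TMut replicate 2 and 4 without TFoCa replicate 2, and the 5 rises in TFoCa versus WT numbered 3 without WT replicate 2.

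**Figure D5:**
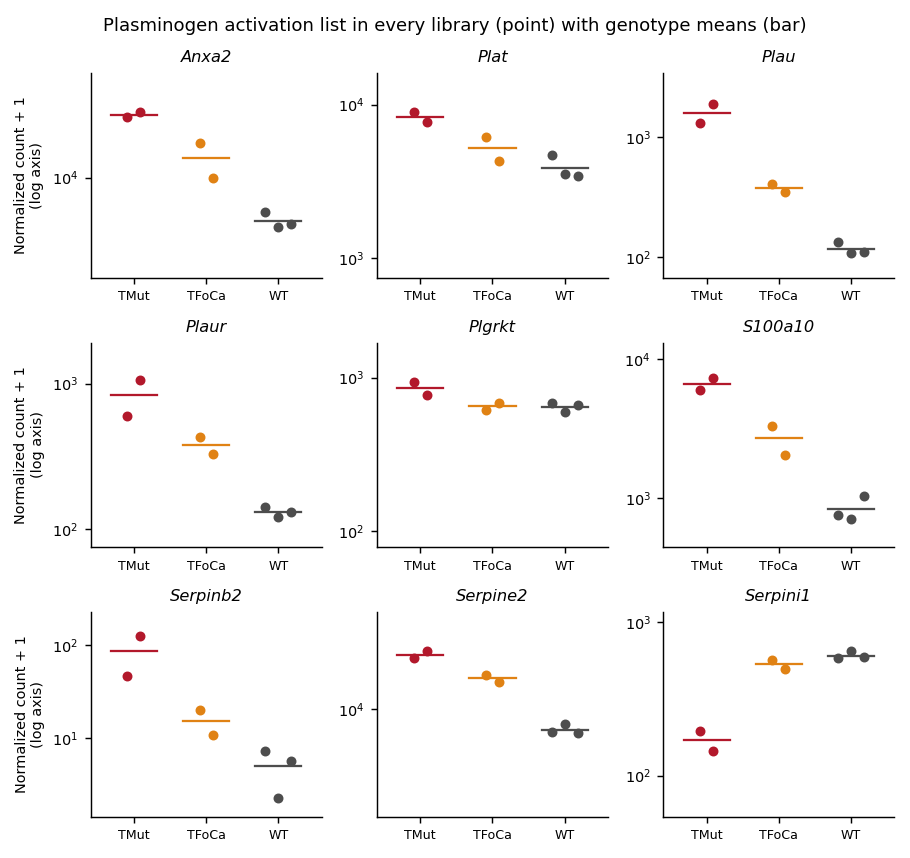
Points are normalized counts + 1 of the 9 tested genes of plasminogen activation in each library on log axes, with TMut, TFoCa and WT from left to right and a bar at each mean. Plau, S100a10 and Anxa2 step down from TMut to TFoCa to WT, and Serpini1 is lowest in TMut.

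Further lists around the proteases were counted in the same fit. Over all genes tested, 18.4% rose and 20.4% fell in TMut versus WT, and 5.25% rose and 3.52% fell in TFoCa versus WT. Of 12 AP-1 and Ets factor genes, 7 rose and 5 were not called in TMut, and 3 rose and 9 were not called in TFoCa. Their median log2 fold changes were 0.63 in TMut and 0.57 in TFoCa. Ets1, an Ets factor known to act on protease promoters, had log2 fold changes of 1.91 ± 0.11 (adjusted p = 7.14e-05) in TMut and 1.02 ± 0.11 (adjusted p = 0.00344) in TFoCa. Fosl2, a Fos family subunit of AP-1, had 1.90 ± 0.18 (adjusted p = 0.000315) in TMut and 1.96 ± 0.18 (adjusted p = 0.00242) in TFoCa. The other Fos and Jun genes differed in TMut. Both TMut lines lay above all WT lines for Fosl1 and Junb, and Fos, Fosb and Jun overlapped WT. Jund, not called, was lower in TMut lines (9668 and 11619) than in WT lines (13695, 13095 and 12818). Of 12 tested activators and partners of ADAM10 and ADAM17, 5 rose and 4 fell in TMut and 1 rose in TFoCa. Across the group, median log2 fold changes were 0.20 in TMut versus WT, 0.29 in TFoCa versus WT and 0.00 in TMut versus TFoCa. Rhbdf1, a partner that carries ADAM17 to the surface, rose by a log2 fold change of 1.56 ± 0.12 (adjusted p = 0.000160) in TMut and by 1.26 ± 0.12 (adjusted p = 0.00242) in TFoCa, and Furin, which removes the prodomain of many of these enzymes, rose by 1.28 ± 0.17 (adjusted p = 0.000999) in TMut.

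Of 21 tested membrane proteins known to be shed by ADAMs, 4 rose and 8 fell in TMut and 3 rose in TFoCa. These were 19.0%, 38.1% and 14.3% of the list, beside 18.4%, 20.4% and 5.25% of all genes tested. Over these 21 genes the log2 fold changes had medians of 0.10 in TMut versus WT, 0.14 in TFoCa versus WT and -0.29 in TMut versus TFoCa. Areg, a ligand of the epidermal growth factor receptor released by ADAM17, had 404 and 414 normalized counts in TMut lines, 284 and 157 in TFoCa lines and 12.6, 22.8 and 18.4 in WT lines. Areg rose by a log2 fold change of 4.48 ± 0.37 (adjusted p = 0.000200) in TMut and by 3.53 ± 0.37 (adjusted p = 0.00319) in TFoCa. Hbegf, a second such ligand, had 1201 and 1443 normalized counts in TMut lines, 861 and 689 in TFoCa lines and 118, 188 and 197 in WT lines. It also rose in both (adjusted p = 0.000210 in TMut and 0.00394 in TFoCa). L1cam, a neural adhesion protein shed by ADAM10, fell with a log2 fold change of -3.02 ± 0.29 (adjusted p = 0.000314) in TMut versus WT and of -2.92 ± 0.32 (adjusted p = 0.00163) in TMut versus TFoCa. Of 9 tested lecticans, their link proteins and tenascins, 2 rose and 3 fell in TMut and 1 rose and 1 fell in TFoCa. Median log2 fold changes stood at 0.11 in TMut versus WT, 0.70 in TFoCa versus WT and -0.61 in TMut versus TFoCa. Tnc, a tenascin of the neural stem cell niche, rose with a log2 fold change of 2.50 ± 0.23 (adjusted p = 0.000276) in TMut and by 2.67 ± 0.23 (adjusted p = 0.00207) in TFoCa, while Ncan, neurocan, fell with a log2 fold change of -3.87 ± 0.43 (adjusted p = 0.000553) in TMut and Bcan, brevican, fell with a log2 fold change of -1.72 ± 0.23 (adjusted p = 0.00112) in TMut and by -1.12 ± 0.23 (adjusted p = 0.0247) in TFoCa. Bcan lost its call in TFoCa versus WT when TFoCa replicate 2 or any WT line was left out (adjusted p = 0.0724 to 0.107).

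Of 10 tested further inhibitors and receptors, 6 rose and 4 fell in TMut and 2 rose in TFoCa. The median log2 fold change of the class was 0.71 in TMut versus WT, 0.47 in TFoCa versus WT and -0.29 in TMut versus TFoCa. Cst3, an inhibitor of cysteine cathepsins, rose with a log2 fold change of 1.08 ± 0.12 (adjusted p = 0.000562) in TMut versus WT, and Spock2, a secreted proteoglycan known to affect membrane-type MMPs, fell with a log2 fold change of -1.22 ± 0.15 (adjusted p = 0.000725). Of 6 tested tolloids, meprins and procollagen enhancers, 3 rose and 1 fell in TMut and 1 fell in TFoCa. Across the group, median log2 fold changes were 0.57 in TMut versus WT, 0.20 in TFoCa versus WT and 1.18 in TMut versus TFoCa. Bmp1, the procollagen C-proteinase, rose by a log2 fold change of 2.00 ± 0.24 (adjusted p = 0.000818) in TMut, and Pcolce, its enhancer, by 1.82 ± 0.28 (adjusted p = 0.00222). Of 11 tested serine and cysteine proteases of the matrix, 5 rose in TMut, and the 11 were not called in TFoCa by limma. Over these genes the log2 fold changes had medians of 0.49 in TMut versus WT, -0.01 in TFoCa versus WT and 0.71 in TMut versus TFoCa. Prss23, a secreted serine protease, rose by a log2 fold change of 2.25 ± 0.16 (adjusted p = 0.000131) in TMut versus WT. Of 7 ADAMTS-like proteins, which lack the protease domain, 1 rose and 1 fell in TMut and 1 rose in TFoCa. Median log2 fold changes stood at 0.03 in TMut versus WT, 1.06 in TFoCa versus WT and -1.02 in TMut versus TFoCa. For comparison, 38.8% of all genes tested were called in TMut versus WT, 8.77% in TFoCa versus WT and 35.8% in TMut versus TFoCa. By direction, 18.4% rose and 20.4% fell in TMut versus WT, and 5.25% rose and 3.52% fell in TFoCa versus WT.

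Exons of 16 of the 51 genes overlap those of another gene in the GENCODE annotation of GRCm38, for 12 of them a gene that is in the table. Besides the pairs given above, Adam1a shares 63.7% of its exon bases with Gm42878 on the same strand. Mmp11 shares 5.58% with Chchd10 on the opposite strand. Mmp28 overlaps 1700020L24Rik on the opposite strand. That gene had 66.8 and 75.6 normalized counts in TMut lines, 296 and 326 in TFoCa lines and 93.4, 174 and 158 in WT lines. Like Mmp28, it was highest in TFoCa lines. Timp4 shares 1.53% with Syn2 on the opposite strand. Syn2 had 120 and 30.01 normalized counts in TMut lines, 833 and 291 in TFoCa lines and 447, 439 and 414 in WT lines. Replicate 1 exceeded replicate 2 for both genes in TMut and TFoCa, but not for Timp4 in WT. The part of these overlaps was not tested. Reads from such stretches cannot be assigned with certainty here, so the values of these genes are uncertain to that extent.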

How the data were processed

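The deposited signal values are normalized counts per gene, which the authors made from RNA sequencing reads. Per the submitters' processing notes the tools included DESeq2, featureCounts, SAMtools, STAR 2.7.3a and Trim Galore 0.6.5, and the build was mm39; their settings, the annotation and the use of strand are not given in the sources used here. The values were whole multiples of 1 read's worth in each library for 100% of values (tolerance 0.001 reads), so reads were recovered. Of recovered values between 1 and 20, 70.29% to 79.32% were even, and every gene had at least 71 reads over all libraries. A gene was tested with at least 10 normalized counts in at least 2 libraries. The log2(normalized count + 1) values of all 3 genotypes were fitted in limma 3.58.1 with a mean-dependent prior (R 4.3.3; 4 residual degrees of freedom), with Benjamini-Hochberg adjustment. The fit was tested on simulated data. By the design text each library came from a separate line, and p-values measure the spread between these libraries. The replicate number was not used as a block, since the labels do not tie it to a shared source. Alternatives were a pseudocount of 8, no filter, a mean of at least 50, TMM factors, edgeR 4.0.16 and DESeq2 1.42.0 on recovered reads, a fit to the genotypes compared, a replicate block and each library left out; for pathway genes they were added after the values were seen.

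The genes followed, their classes and the pathway and marker lists were chosen with earlier results of these data known, and the ADAM classes were set from background knowledge after the values were seen. Named genes were the TIMPs, Adam10, Adam17, Mmp2, Mmp14, up to 4 genes per class with the smallest adjusted p, genes with a mean of 1000 normalized counts or more in a genotype, and up to 4 per pathway list; genes of the set called in some comparison are all described, and uncalled genes are given by range. Levels per kb used exon lengths from a GENCODE annotation of GRCm38, and promoters came from RefSeq on GRCm38.p6; no coordinates were converted. A gene of the plasminogen list is not reported here, and the counts of that list leave it out.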

Additional observations from a re-analysis of the deposited data

How the results depend on the processing

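The alternatives changed the pseudocount, filter, normalization, test or libraries in the fit, added a replicate block, or left out each library; DESeq2 also left genes without an adjusted p, with 17782 of 18134 tested. Of the calls among the 51 genes, 21 of 28 in TMut versus WT, 11 of 21 in TMut versus TFoCa and 5 of 18 in TFoCa versus WT held under every alternative run, and the direction of a called change reversed under none of them; 5, 13 and 12 genes not called in these comparisons were called under some alternative. Values of 5 genes in TMut versus WT, 14 in TMut versus TFoCa and 15 in TFoCa versus WT changed sign somewhere, all uncalled; those below belong to genes called in some comparison, Timp1 to Timp4, Adam10, Adam17, Mmp2 and Mmp14, a scope set after the sign changes were seen, and to pathway genes. With the replicate number as a replicate block, the 18 rises in TFoCa versus WT numbered 7, those over all genes 363 and the falls over all genes 192, while the rises over all genes in TMut versus WT numbered 2146, and Adamts20 in TFoCa versus WT was at 0.075. WT alone has a replicate 3, so the block also takes that library out of the comparison. Leaving that library out with no block gave 8, 455, 183 and 2229 for the same 4 counts and the same value for Adamts20. With the block in limma, TFoCa versus WT lost the calls of Adam12, Adam15, Adamts1, Adamts4, Adamts8, Adamts9, Adamts10, Adamts14 and Adamts17 (adjusted p = 0.0539 to 0.0873). It also lost those of Mmp2, Mmp14 and Mmp19 (0.0628 to 0.169) and of Bcan (0.0999). TMut versus WT lost Mmp2, Mmp10, Mmp12, Mmp14, Mmp25 and Timp3 (0.0516 to 0.0913). TMut versus TFoCa lost Adamts9 and Adamts19 (0.0828 to 0.0862). Same-numbered libraries had correlations of 0.0192 to 0.185 of their deviations, and libraries with different numbers had -0.185 to 0.108. With 2 libraries each in TMut and TFoCa the deviations within these genotypes mirror each other, so the values cannot show whether numbers pair libraries. The labels do not say that a number pairs them. DESeq2 on recovered reads called 1689 rises and 1258 falls over all genes in TFoCa versus WT, against 952 and 638 by limma. A fit to TMut and TFoCa alone gave 7 falls among the 51 genes, 1610 rises and 1809 falls over all genes, and 3 rises in the plasminogen list. With each library left out in turn, the 18 rises in TFoCa versus WT ranged over 6 to 20 and the falls over 0 to 3, with 375 to 1130 rises and 120 to 785 falls over all genes and 3 to 5 rises in the plasminogen list. In TMut versus WT all genes gave 1934 to 3975 rises and 2395 to 4152 falls. In TMut versus TFoCa the 13 falls ranged over 5 to 16, with 1282 to 2960 rises and 1882 to 3168 falls over all genes and 1 to 6 rises in the plasminogen list. These lowest counts came without WT replicate 2 in TFoCa versus WT and without TMut replicate 2 in the other comparisons, apart from the falls among the 51 genes in TFoCa versus WT, which numbered 3 without TFoCa replicate 1 and 0 without each other library. Uncalled log2 fold changes that crossed 0 when a library was left out ranged as follows in TMut versus WT: Adam10 -0.14 to 0.0088, Adamts8 -0.25 to 1.33, Adamts19 -0.34 to 0.077, Timp4 -0.92 to 0.31, Adamtsl5 -0.18 to 0.19 and Adamtsl2 -1.46 to 0.21. In TFoCa versus WT they were Adam19 -0.12 to 0.35, Adam11 -0.016 to 0.34, Adamts3 -1.56 to 0.31, Adamts20 -0.48 to 0.30, Mmp15 -0.94 to 0.095, Thsd4 -0.40 to 0.93, Tnr -0.073 to 0.53, L1cam -0.48 to 0.30, Cst3 -0.052 to 0.32, Prss23 -0.068 to 0.35 and Plgrkt -0.068 to 0.078. In TMut versus TFoCa they were Adam17 -0.042 to 0.076, Adamts10 -0.10 to 0.40, Mmp2 -0.85 to 0.12, Mmp14 -0.33 to 0.13, Mmp10 -1.49 to 2.08, Timp3 -0.25 to 0.42, Fosl2 -0.33 to 0.20 and Tnc -0.52 to 0.19. The cause of these shifts was not tested. Each genotype had 2 or 3 lines, and Mmp3, Mmp10 and Mmp12 had few reads in WT libraries.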
